A study of Homo sapiens with 4 samples.

Results

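Kinesins are the motor proteins that walk along, slide or depolymerise microtubules, and the mRNAs of the kinesin genes were followed here through an immunoprecipitation of the replication protein ORC1 from nuclei. The group was defined by name: protein-coding genes with a GENCODE v44 symbol of the KIF type, together with the light chains KLC1 to KLC4 and the kinesin binding protein KIFBP, joined to the count table by Ensembl gene identifier. It held 47 of the 63677 genes in the table, and 42 of them passed the count filter, among 14645 genes tested. Kinesin heavy chains carry an ATPase motor domain and, in most members, a long coiled coil through which they pair. In dividing cells one set builds the spindle, moves chromosomes and completes cytokinesis, while another carries vesicles, organelles, proteins and mRNAs toward the plus ends of microtubules or supports cilia. Kinesin light chains have no motor and link the kinesin-1 heavy chains to cargo.

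The libraries came from HCT116, an established epithelial colorectal carcinoma line, and were used to ask which nuclear RNAs are recovered with ORC1, a subunit of the origin recognition complex that marks replication origins. In both groups the cells were asynchronous and had been transfected for 48 h with a pcDNA3.1 plasmid encoding ORC1-3xFLAG from a codon-optimised cDNA. The IP group was RNA recovered with the FLAG antibody M2 from sonicated, uncrosslinked nuclear lysates, and the Input group was RNA of the lysates with no antibody, with 2 libraries in each group numbered replicate 1 and replicate 2. No library from a control antibody or from untransfected cells was analysed here, so each ratio compares an immunoprecipitate with its lysate and does not separate RNA held by ORC1 from RNA held by the beads or the antibody. RNA was treated with DNase and prepared with a stranded total RNA kit after ribosomal depletion, so that the counts report full nuclear transcript pools and not binding positions.

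Total counts ran from 9213877 to 14677002 in Input and from 20280445 to 27483148 in IP. Values are given as CPM, read counts relative to a library total that was adjusted by TMM (trimmed mean of M values), and reads carry no molecular identifiers. The study's methods describe the FLAG libraries as duplicate experiments, and p-values measure the spread between these samples alone. The epithelial markers EPCAM, CDH1, KRT8 and KRT18 ranged from 46.8 to 2055 CPM over the libraries, while PTPRC, CD3E, COL1A2, PECAM1 and GFAP were at most 0.257 CPM (CD3E and PECAM1 at 0 in every library) and COL1A1 was at 7.90 to 26.7 CPM. ORC1, which the plasmid also encodes, was 16.7-fold higher in IP replicate 2 than in IP replicate 1, and 15.2-fold higher in Input replicate 2 than in Input replicate 1. In these bulk libraries, fewer cells that express a gene and less RNA per cell cannot be told apart.

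Tandem GAA repeats were a sequence feature that the study examined, and the sense strand of each kinesin transcript was therefore read for GAAGAAGAA, which is 3 copies of GAA. The canonical transcripts of 17 kinesin genes held 19 such tracts, all within coding sequence. A tract can be read as GAA codons, which specify glutamate, or shifted by a base as AAG codons, which specify lysine, and 11 of the 19 were in the first frame and 8 in the second. Windows around the tracts are given for 6 of the mRNAs most enriched in IP, since they show both frames, with the tract in capitals. KIF13B, which holds a pair of tracts, is not shown. The positions are those of GENCODE v44 on GRCh38. The KIF15 window lies at chr3:44840374-44840402 (plus strand, exon 28 of 35), that of KIF4A at chrX:70375251-70375279 (plus strand, exon 17 of 31) and that of KIF5C at chr2:148962018-148962046 (plus strand, exon 11 of 26), and in these mRNAs the tract is read as lysine codons. The KIF20B window lies at chr10:89738573-89738601 (plus strand, exon 20 of 33), that of KIF5B at chr10:32033868-32033896 (minus strand, exon 12 of 26) and that of KIF14 at chr1:200617697-200617725 (minus strand, exon 2 of 30), and here the tract is read as glutamate codons.
KIF15: aagtagaacaGAAGAAGAAtgaatataac
KIF4A: ttgctgatctGAAGAAGAAactgaatgag
KIF5C: cagaagaatgGAAGAAGAAatatgaaaaa
KIF20B: attaaaaGAAGAAGAAGAAGAAaccaaca
KIF5B: aagaaagtgtGAAGAAGAAattgctaaat
KIF14: aattcttcccGAAGAAGAAactgtagttc

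KIF20B had the longest tract among the kinesins, with 5 copies of GAA. KIF3A, with 4 copies, and KIF5A, whose tract starts at codon 342 as that of its paralog KIF5C does, were added after their values had been seen. The KIF3A window lies at chr5:132703510-132703539 (minus strand, exon 12 of 19, glutamate codons) and the KIF5A window at chr12:57569582-57569610 (plus strand, exon 11 of 29, lysine codons).
KIF3A: ctcgacatgGAAGAAGAAGAAagaaacaag
KIF5A: ctgagcagtgGAAGAAGAAatatgagaag

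The comparison of IP with Input showed kinesin mRNAs on the recovered side. Of the 42 tested, 21 (50%) were called enriched, that is with a log2 fold change above 1 and a Benjamini-Hochberg adjusted p below 0.05 in the quasi-likelihood test of edgeR over all genes, where 10.5% of all tested genes and 11.9% of tested protein-coding genes were called. No kinesin mRNA was depleted in edgeR (background 8.3%), in DESeq2 or in limma voom, with 0 at an unadjusted p below 0.05 in that direction. The median log2 fold change of the 42 was 1.14, against 0.01 over all tested genes and 0.08 over tested protein-coding genes. In 34 of the 42 both IP libraries lay above both Input libraries, which was so for 33.2% of all tested genes, and in none did both IP libraries lie below (31.9% of all tested genes). The replicate ratios (log2 of IP to Input CPM, pseudocount 0.5 CPM) had medians of 1.16 in replicate 1 and 1.04 in replicate 2. Across the 42 mRNAs the replicate ratios ranked alike at a Spearman rho of 0.843, close to 0.862 over all 14645 tested genes, both taken from the same 4 libraries.

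Fold changes here are relative to the other RNAs of a library. With library size as the only scaling, the median log2 fold change over all genes was -0.59, and 8 kinesin mRNAs were then called enriched (2.59% of all tested genes), while the median of the 42 stayed 1.12 above that of all genes (1.13 with TMM). The fitted log2 fold change was above 0 for 41 of 42 with TMM, 38 with upper-quartile scaling and 33 with library size alone. Leaving out each library in turn gave a median log2 fold change of the 42 between 1.01 and 1.24.

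**Figure D1:**
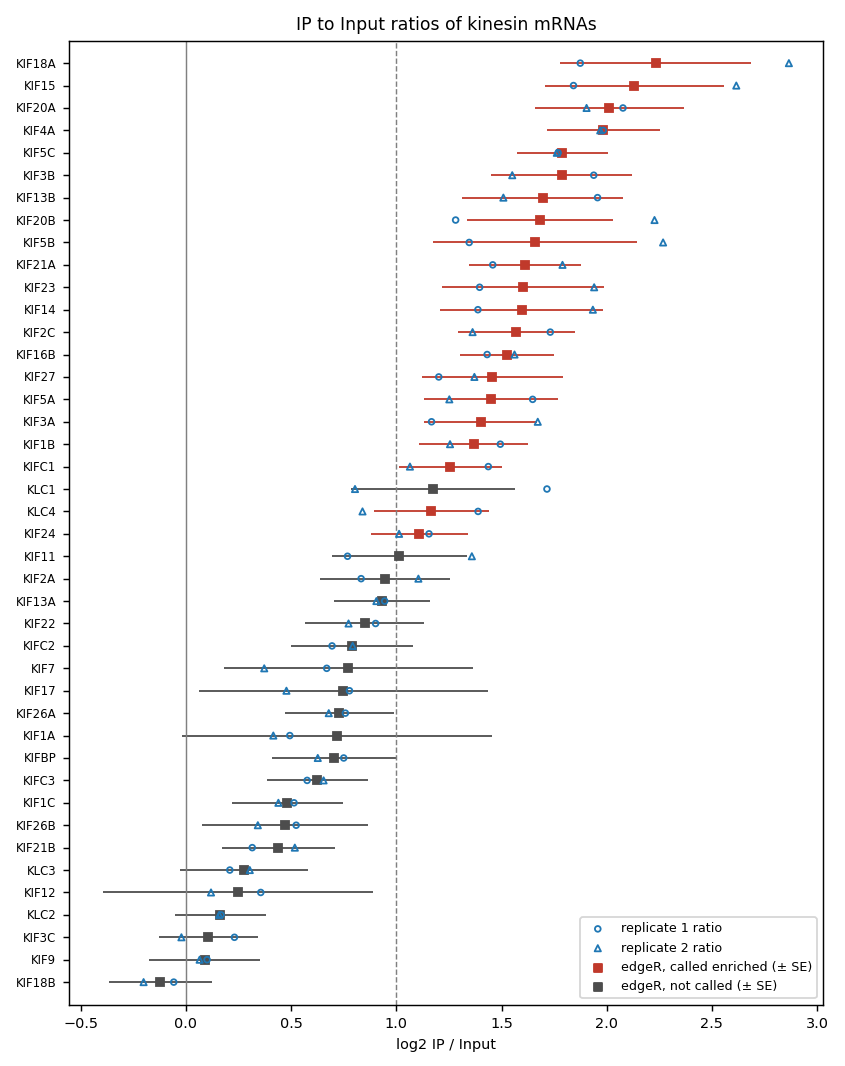
Log2 ratio of IP to Input (horizontal axis) for the 42 tested kinesin mRNAs, ordered by the edgeR log2 fold change (squares, ± SE, n = 2 libraries per group), with the ratio of replicate 1 (circles) and replicate 2 (triangles). Squares of the 21 enriched mRNAs are red, the dashed line marks a log2 fold change of 1, and KIF18B is the only mRNA with both replicate ratios below 0.

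Of 15 mitotic kinesins listed, 13 were tested and 9 were enriched (10.5% of all tested genes), with a median log2 fold change of 1.60. It was 2.20 without Input replicate 1 and 1.13 without Input replicate 2, where the median of the transport kinesins was 1.23 and the highest kinesin was KIF13B at 2.15. KIF18A, which dampens chromosome oscillations at the metaphase plate by acting on kinetochore microtubules, had the largest log2 fold change with all libraries (chr11:28020619-28108156, minus strand). It held 268 and 206 CPM in IP replicates 1 and 2 and 72.7 and 27.8 CPM in the Inputs. IP and Input did not overlap. The lower level of Input replicate 2 went with a higher ratio there, 2.87 on the log2 scale against 1.87 in replicate 1. This gap was the widest among the 42 tested kinesins of the group. The log2 fold change came to 2.23 ± 0.45 (SE, n = 2 per group, edgeR adjusted p = 0.0190). KIF15, a plus-end motor that holds the bipolar spindle together with KIF11, held 165 and 120.1 CPM in IP against 45.7 and 19.2 CPM in Input, a log2 fold change of 2.13 ± 0.42 (SE, n = 2 per group, edgeR adjusted p = 0.0181). KIF15 showed the same pattern as KIF18A, with non-overlapping groups and the lowest value in Input replicate 2.

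KIF20A, KIF20B and KIF23 form the kinesin-6 family, which works at the central spindle and the midbody, and all 3 were enriched. KIF20A, which brings the chromosomal passenger complex to the midzone, held 753 and 452 CPM in IP against 178 and 120.5 CPM in Input (chr5:138178719-138187723, plus strand). Both IP libraries exceeded both Inputs and the replicate ratios were close, 2.08 and 1.90. KIF20B held 191 and 189 CPM in IP against 78.2 and 39.97 CPM in Input. Its IP values were nearly equal and its ratios, 1.28 and 2.23, parted through the Inputs. KIF23, the motor of the centralspindlin complex, held 544 and 396 CPM in IP against 206 and 103 CPM in Input, and here too the groups did not overlap. The log2 fold changes were 2.01 ± 0.36 for KIF20A, 1.68 ± 0.35 for KIF20B and 1.60 ± 0.38 for KIF23 (SE, n = 2 per group, edgeR adjusted p = 0.0139, 0.0191 and 0.0281).

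KIF4A, a chromokinesin that binds chromosome arms and sets the length of the midzone, held 304 and 239 CPM in IP against 76.5 and 60.6 CPM in Input. Both replicates gave almost the same ratio, 1.98 and 1.97, and the log2 fold change came to 1.98 ± 0.27 (SE, n = 2 per group, edgeR adjusted p = 0.0105). KIF14, which recruits citron kinase to the midbody, held 237 and 168 CPM in IP against 90.3 and 43.6 CPM in Input, without overlap, and its log2 fold change came to 1.60 ± 0.39 (SE, n = 2 per group, edgeR adjusted p = 0.0291). The microtubule depolymerase KIF2C and the minus-end motor KIFC1, which focuses spindle poles, were also enriched, with log2 fold changes of 1.57 and 1.26.

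Mitotic members not called were KIF11, KIF2A, KIF22 and KIF18B. KIF11, the kinesin-5 that pushes spindle poles apart, held 272 and 233 CPM in IP against 159 and 90.7 CPM in Input, so the groups did not overlap. Its log2 fold change of 1.01 ± 0.32 had an edgeR adjusted p of 0.0614 (SE, n = 2 libraries per group), and a block on the replicate number gave 1.06 and an edgeR adjusted p of 0.000156. KIF11 was also called without IP replicate 2 (1.17) or without Input replicate 1 (1.52). KIF2A, a depolymerase of spindle poles, and KIF22, a chromokinesin, had log2 fold changes of 0.95 and 0.85. Both passed without IP replicate 2 (1.19 and 1.13) and without Input replicate 1 (1.38 and 1.09). KIF18B, which shortens astral microtubules, was the exception to the group: its 79.6 and 60.6 CPM in IP overlapped its 82.9 and 69.7 CPM in Input, and its log2 fold change of -0.12 ± 0.25 (SE, n = 2 per group, edgeR adjusted p = 0.750) was above 0 without IP replicate 2 (0.11) or without Input replicate 1 (0.05).

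**Figure D2:**
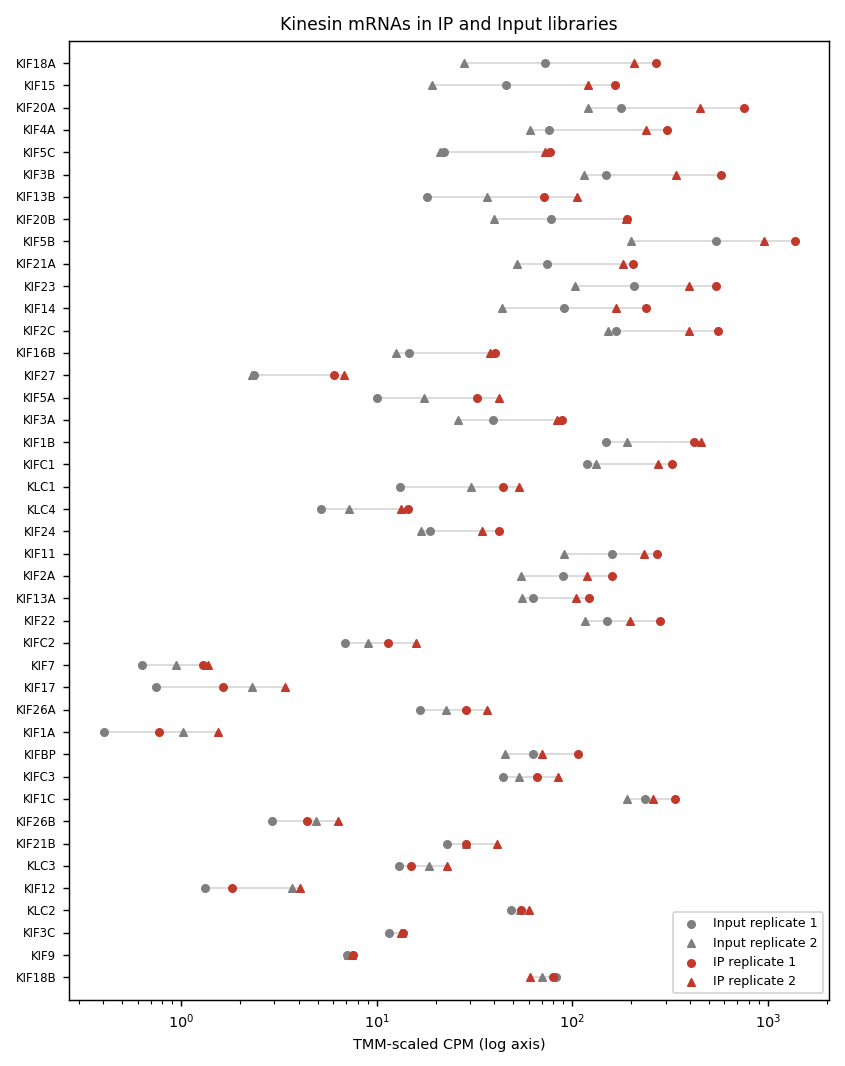
TMM-scaled CPM (horizontal log axis) of the 42 tested kinesin mRNAs in the IP (red) and Input (grey) libraries, circles for replicate 1 and triangles for replicate 2, ordered by log2 fold change from KIF18A at the top. In 34 mRNAs both red points lie to the right of both grey points, and in KIF18B the groups overlap.

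All 21 transport kinesins and light chains were tested, and 10 were enriched (10.5% of all tested genes), with a median log2 fold change of 1.17 for the 21. The 3 heavy chains of kinesin-1, the founding transport motor, were all enriched. KIF5B, the ubiquitous heavy chain, held 1376 and 962 CPM in IP against 541 and 199 CPM in Input. The groups did not overlap, but the Inputs differed more than the IP libraries, and the log2 fold change of 1.66 ± 0.49 (SE, n = 2 per group, edgeR adjusted p = 0.0497) lost its call without IP replicate 1 (1.41), without Input replicate 2 (0.96) and with RLE size factors (1.61, edgeR adjusted p = 0.0658). KIF5C, a heavy chain best known from neurons, held 76.7 and 72.9 CPM in IP against 22.2 and 21.1 CPM in Input. Replicates were almost equal within each group, and the log2 fold change of 1.79 ± 0.22 (SE, n = 2 per group, edgeR adjusted p = 0.0105) had the smallest unadjusted p of the kinesins. KIF5A, the other neuronal heavy chain, had a log2 fold change of 1.45.

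The light chains differed from the heavy chains in their calls. KLC4 was enriched at 1.17 and was not called without IP replicate 1 (1.15) or Input replicate 1 (0.99). KLC1 held 44.2 and 53.2 CPM in IP against 13.1 and 30.3 CPM in Input, so both IP libraries were above both Inputs, with the widest Input difference of the light chains. Its log2 fold change of 1.17 ± 0.39 had an edgeR adjusted p of 0.0702 (SE, n = 2 libraries per group), and 1.27 with an edgeR adjusted p of 0.000532 with the replicate block. KLC1 was also called without IP replicate 1 (1.35), IP replicate 2 (1.09) or Input replicate 2 (1.75). Exons of XRCC3 on the opposite strand cover 29.9% of the exonic bases of KLC1, and whether the counting used strand is not given in the sources used here. KLC2 and KLC3 had log2 fold changes of 0.16 and 0.28 and were not called, and with library size alone both were below 0 (-0.43 and -0.31), as KLC3 was without IP replicate 2 (-0.0060). The difference between heavy and light chains was not tested.

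Kinesin-2 motors drive anterograde transport in cilia and in the cytoplasm. KIF3B held 574 and 338 CPM in IP against 149 and 115 CPM in Input (chr20:32277651-32335011, plus strand), and its log2 fold change came to 1.79 ± 0.34 (SE, n = 2 per group, edgeR adjusted p = 0.0158). Its groups were far apart in both replicates. Its partner KIF3A was enriched at 1.40, a call that was lost without Input replicate 2 (0.98). KIF3C, the alternative partner of KIF3A, had 13.6 and 13.3 CPM in IP against 11.5 and 13.5 CPM in Input, which overlapped (log2 fold change 0.11, and -0.50 with library size alone). KIF17, the homodimeric member, was at 0.745 to 3.41 CPM and was not called.

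Among kinesin-3 motors, which carry vesicles and endosomes, KIF13B, KIF16B, KIF1B and KIF14 were enriched and KIF13A, KIF1A and KIF1C were not called. KIF13B held 71.5 and 106 CPM in IP against 18.0 and 36.8 CPM in Input. Among the 12 enriched kinesins with the largest fold changes it alone had higher levels in replicate 2 than in replicate 1 in both groups, and IP and Input did not overlap (log2 fold change 1.70 ± 0.38, SE, n = 2 per group, edgeR adjusted p = 0.0243). KIF16B, which moves early endosomes, was enriched at 1.52, and KIF1B, which carries mitochondria and synaptic vesicle precursors, at 1.37. KIF13A had an edgeR adjusted p of 0.0304 at a log2 fold change of 0.93, just short of the fold change minimum, and it passed without IP replicate 2 (1.09) or Input replicate 1 (1.07). KIF1C, a motor that also transports mRNA, held 336 and 260.0 CPM in IP against 235 and 192 CPM in Input, without overlap, and was not called at 0.48 (-0.13 with library size alone).

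KIF21A, a kinesin-4 that suppresses microtubule growth at the cell cortex, held 205 and 182 CPM in IP against 74.2 and 52.4 CPM in Input, and its log2 fold change came to 1.61 ± 0.27 (SE, n = 2 per group, edgeR adjusted p = 0.0130). Its paralog KIF21B had 28.5 and 41.1 CPM in IP against 22.8 and 28.6 CPM in Input, with IP replicate 1 just below Input replicate 2, and was not called at 0.44 (-0.15 with library size alone). Of the cilium list, 7 of 9 genes were tested and 4 were enriched (10.5% of all tested genes). These were KIF3A, KIF3B, KIF27 (1.46) and KIF24 (1.11), while KIF7, the Hedgehog pathway kinesin, KIF9 and KIF17 were not called. KIF27, at 2.31 to 6.77 CPM, lost its call without IP replicate 1 (1.58), IP replicate 2 (1.43) or Input replicate 2 (1.30), and KIF24 lost it without IP replicate 1 (0.99) or Input replicate 2 (0.88). The remaining tested genes, KIF12, KIF26A, KIF26B, KIFC2, KIFC3 and KIFBP, had log2 fold changes between 0.25 and 0.79, and none was called. KIFBP, which binds kinesin motor domains and keeps them off microtubules, passed without IP replicate 2 (1.02) or Input replicate 1 (1.00). Without these libraries KIF12 was below 0 (-0.38 and -0.29), and KIF9, at 0.09 with all libraries, was at -0.06 without Input replicate 2.

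The 5 kinesin genes below the count filter were KIF2B, KIF4B, KIF6, KIF19 and KIF25. KIF2B was at 0 in every library. KIF4B had 5 and 6 reads in IP against 0 and 1 in Input, and since it is a near-identical retrocopy of KIF4A these reads may not be its own. The cilium genes KIF6 and KIF19 and the gene KIF25 had between 0 and 7 counts in any library.

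Levels per exonic length put the recovered mRNAs in context, with that length taken as the union of exons of all GENCODE v44 transcripts of a gene. A gene with a large union, such as KIF5C at 33151 bases, gets a lower value per kilobase. In Input, KIF5B had the highest mean level at 63.1 CPM per kilobase of exons, followed by KIF2C at 43.8, KIFC1 at 41.3 and KIF20A at 38.7 CPM per kilobase, and KIF1A was lowest among those tested at 0.0399 CPM per kilobase. The Input ranges of KIF2C and KIFC1 were narrow (153 to 167 and 119 to 132 CPM), while that of KIF5B was broad, and the order of neighbours in this list was not tested. The kinesin median of 5.22 CPM per kilobase was close to the 4.49 CPM per kilobase of tested protein-coding genes. Spearman's rho between Input CPM and log2 fold change was 0.356 across the 42 kinesins and 0.149 across 12542 protein-coding genes.

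Kinesin coding sequences are long, and across all tested protein-coding genes recovery went with coding length (Spearman rho 0.589, n = 12542 genes that share the same libraries). The 42 kinesins had coding lengths from 1512 to 6324 bases with a median of 2906, against 1431 bases over tested protein-coding genes, and 16 of them fell in the longest decile. Within the kinesins the rho was 0.236 (0.357 without IP replicate 1). With exonic in place of coding length it was 0.0015 in the kinesins and 0.298 across the 12542 protein-coding genes. With coding length it was 0.402 across the 5549 protein-coding genes within the same length range. Those 5549 genes had a median log2 fold change of 0.49 and 19.0% of them were enriched, against 1.14 and 50% of the kinesins. They share the range of the kinesins but were not matched to them in length. By decile of coding length, 10.5% of tested protein-coding genes were enriched in the seventh and 15.0% in the eighth. The share was 24.0% in the ninth and 46.6% in the longest decile. Compared with the median of its own coding-length decile, a kinesin mRNA was higher in 30 of 42 cases and lower in 12, by a median of 0.44 on the log2 scale. In the ninth decile, the median was 1.60 for 9 kinesins and 0.64 for all genes, and in the longest decile it was 1.41 for 16 kinesins and 1.07 for all genes.

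**Figure D3:**
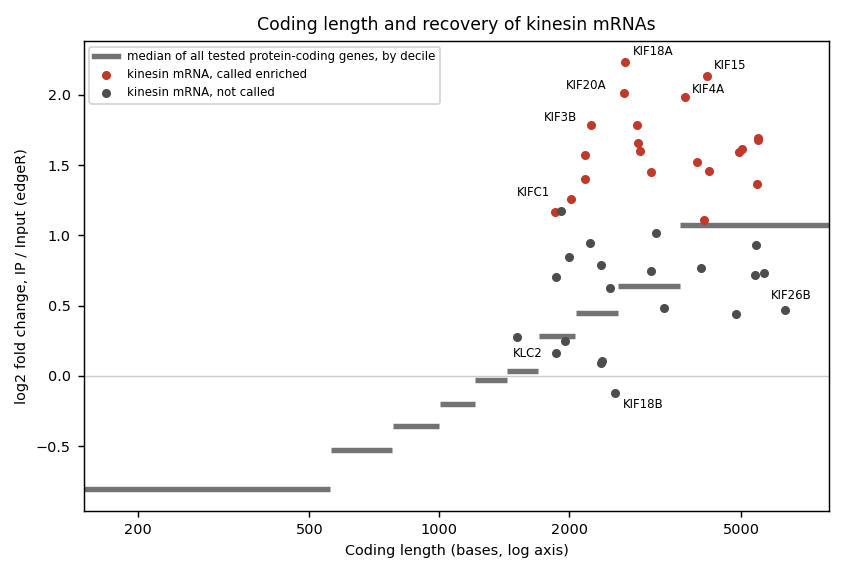
Log2 fold change of IP to Input against coding length in bases (log axis) for the 42 tested kinesin mRNAs, red where enriched, with grey bars for the median of all tested protein-coding genes in each decile of coding length. The bars climb with coding length, from -0.81 to 1.07, and 30 kinesin points lie above the bar of their own decile.

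GC content of the canonical transcript ran from 34.3% in KIF20B to 68.6% in KIF26A, and its Spearman rho with the log2 fold change was -0.675 across the 42 mRNAs. Across all tested protein-coding genes it was 0.071, and across the 5549 genes within the coding-length range of the kinesins -0.011. The 14 kinesins with the lowest GC content (34.3 to 45.8%) included 11 enriched mRNAs and had a median log2 fold change of 1.60. The middle 14 (46.2 to 56.0%) included 8 with a median of 1.27, and the highest 14 (57.5 to 68.6%) included 2, KIFC1 and KLC4, with a median of 0.72. Of all tested genes 10.5% were enriched. In replicate 1 alone the median ratio was 1.37 in the lowest, 1.57 in the middle and 0.62 in the highest group, and without Input replicate 2 the fitted medians were 1.08, 1.38 and 0.83, so the lowest and middle groups changed places. The share of GAA codons had a rho of 0.699 with the log2 fold change across the kinesins. It was 0.217 across tested protein-coding genes and 0.272 across those within the coding-length range of the kinesins. GAA codon share and GC content themselves had a rho of -0.939 in the kinesins.

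The libraries also differed in base composition within a group. The ratio of Input replicate 2 to Input replicate 1 rose with GC content across the kinesins (rho 0.759). Its median log2 value was -0.75 in the 14 mRNAs of lowest and 0.36 in the 14 of highest GC content. The ratio of IP replicate 2 to IP replicate 1 had a rho of 0.550. Across all tested protein-coding genes the rho was 0.295 for Input and 0.218 for IP. It was 0.344 for Input and 0.240 for IP across those in the coding-length range of the kinesins. The rho of GC content with the replicate ratio was -0.535 in replicate 1 and -0.775 in replicate 2. Without Input replicate 2, the rho with the fitted log2 fold change was -0.275 for GC content and 0.287 for GAA codon share, and without Input replicate 1 -0.814 and 0.826. The part of the difference between the Inputs in this relation was not tested beyond these fits.

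**Figure D4:**
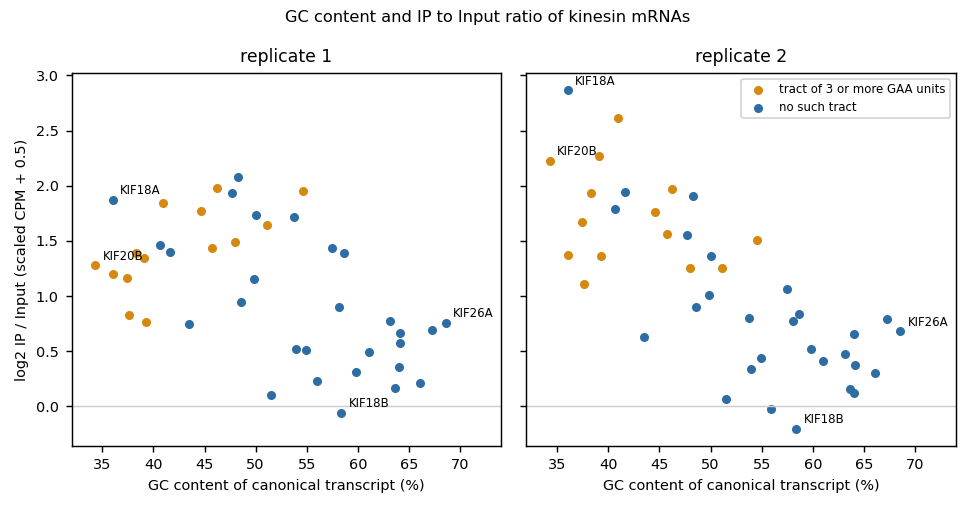
Log2 ratio of IP to Input against GC content of the canonical transcript (%) for the 42 tested kinesin mRNAs, replicate 1 on the left and replicate 2 on the right, with orange points for the 14 mRNAs that hold 3 or more GAA copies in tandem. The downward course is steeper in replicate 2 (rho -0.775) than in replicate 1 (rho -0.535), and no orange point lies among the 14 mRNAs of highest GC content.

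Some but not all paralog pairs showed the same contrast within families. KIF18A (36.0% GC) and KIF18B (58.4%) had replicate ratios of 1.87 and 2.87 against -0.06 and -0.20, and KIF21A (40.7%) and KIF21B (59.8%) 1.46 and 1.79 against 0.31 and 0.52. Of 58 pairs of tested members in 11 families, many of which share a gene, the member of lower GC content had the higher log2 fold change in 38. In 32 of these 38 it also had the higher ratio in both replicates. Some of the 38 pairs have KIF1A, KIF7, KIF12 or KIF17 as the member of higher GC content. These mRNAs were at 0.401 to 4.04 CPM, where the pseudocount of 0.5 CPM draws replicate ratios toward 0. Pairs that went the other way included KIF13A and KIF13B, KIF20B and KIF20A, KIF26B and KIF26A, and every kinesin-13 pair (KIF2A, KIF24 and KIF2C). Differences between paralogs were not tested.

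GAA tracts of the kind shown above were found in 14 of the 42 tested kinesins (33.3%), against 14.8% of 12542 protein-coding genes and 20.0% of those in the same coding-length range. The reverse complement was present in 2.38% of the kinesins and 5.02% of protein-coding genes. Of the 14 kinesins with a tract, 12 were enriched with a median log2 fold change of 1.56, and those not called were KIF11 and KIF2A. Of the 28 without one, 9 were enriched with a median of 0.76, among them KIF18A and KIF20A, which are near the top of the list. Over tested protein-coding genes, 30.9% of those with a tract and 8.60% of those without were enriched, so the background showed the same direction. By reading frame, the median was 1.56 for the 8 tested kinesins with a tract of glutamate codons and 1.62 for the 6 with a tract of lysine codons. Of the 14 kinesins with a tract, 10 were among the 14 of lowest GC content, so tract and base composition moved together.

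CENPE, the kinetochore kinesin, and KIFAP3, the cargo-binding subunit of kinesin-2, fall outside the naming rule and were both enriched. CENPE held 173 and 237 CPM in IP against 44.2 and 19.6 CPM in Input, a log2 fold change of 2.68 ± 0.42 (SE, n = 2 per group, edgeR adjusted p = 0.0118), which was above that of every kinesin in the group. Its replicate ratios were 1.95 and 3.56. In replicate 1 CENPE was below KIF20A (2.08) and KIF4A (1.98) and just below KIF13B (1.96). KIFAP3 had a log2 fold change of 1.80. Around the motors, 8 of 15 other spindle and midzone genes were enriched, with a median of 1.04. The largest log2 fold changes were those of HMMR (2.29), TPX2 (2.12), PRC1 (2.00) and CKAP5 (1.91). That of HMMR had an SE of 0.66, with Inputs of 144 and 30.5 CPM and replicate ratios of 1.78 and 3.55. In replicate 1 HMMR was below TPX2 (2.08), PRC1 (2.04) and CKAP5 (1.96). Kinesin cargo adaptors were enriched in 6 of 19 cases and depleted in 1, with a median of 0.67. Over all tested genes, 10.5% were enriched and 8.3% depleted. The largest positive change was that of MAP7D3, a microtubule-associated activator of kinesin-1, at 2.42. Scaling by library size alone left 6 of the 17 spindle genes enriched with CENPE and KIFAP3 included (10 with TMM), and 2 adaptors enriched and 2 depleted. With that scaling 2.59% of all tested genes were enriched and 22.2% depleted.

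The opposing motor, cytoplasmic dynein with dynactin, had 7 of 25 genes enriched (10.5% of all tested genes), 1 depleted (8.3% of all tested genes) and a median of 0.29. Its heavy chain DYNC1H1 was enriched at 1.87, and the light chain DYNLT3 was depleted at -2.14. The count of depleted dynein and dynactin genes was 0 without Input replicate 1, 4 without Input replicate 2 and 8 with library size alone, where 2 were enriched. In those fits 9.50%, 11.8% and 22.2% of all tested genes were depleted, and 2.59% were enriched with library size alone. None of the 13 tested tubulin genes was called in either direction in edgeR, DESeq2 or limma voom, with a median of -0.28, but 1 was depleted without Input replicate 2 and 5 with library size alone. At an unadjusted p below 0.05 in edgeR, TUBB6 was positive (0.73) and TUBA1B and TUBA1A were negative (-0.87 and -0.65). Coding lengths differed between the lists, with medians of 2906 bases for the kinesins, 1128 for dynein and dynactin and 1350 for the tubulins. Cargo adaptors had a median of 2628 bases, and the 17 spindle genes, CENPE and KIFAP3 included, one of 2376 bases. The differences between lists were not tested.

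**Figure D5:**
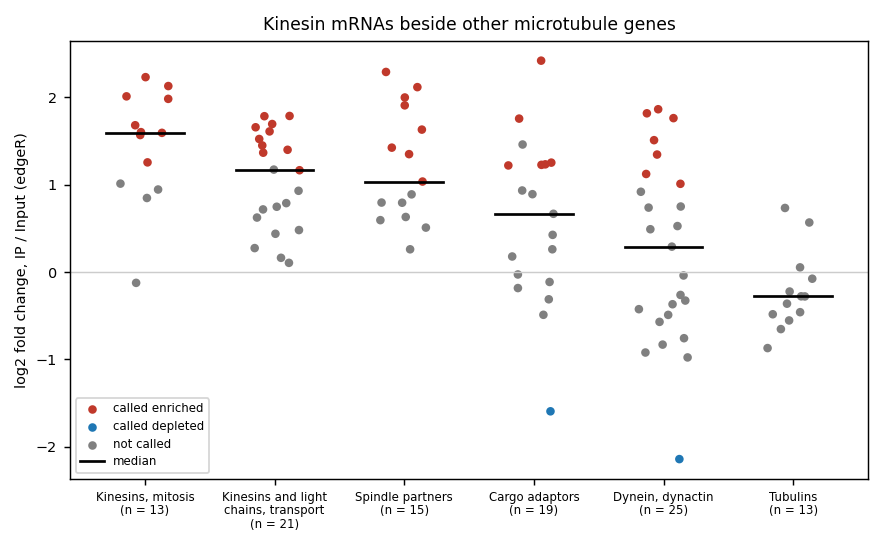
Log2 fold change of IP to Input for tested genes of 6 lists, with a point per gene (red enriched, blue depleted, grey not called) and a black bar at the median. The medians are 1.60 for mitotic kinesins, 1.17 for transport kinesins and light chains, 1.04 for spindle partners, 0.67 for cargo adaptors, 0.29 for dynein and dynactin and -0.28 for tubulins.

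Exons that overlap another gene limit some of these values, since the counting may or may not have used strand. Shared exonic bases were found for 23 of the 42 tested kinesins. Among enriched members the summed overlap with opposite-strand genes exceeded 10% of exonic bases in 3, which were KIFC1, KIF27 and KLC4, and among those not called it was largest for KLC1 (30.3%), KIF2A (18.7%), KIF9 (17.8%) and KIFC2 (17.8%). KLC1 also shared 10.3% of its exonic bases with a gene on the same strand, KIF2A 2.54% and KIF1B 1.55%. Such overlap remains whatever the strand setting.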

How the data were processed

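RNA immunoprecipitation sequencing of 4 libraries was analysed. The deposited values are raw read counts per gene: per the submitters' processing notes and the study's methods, the authors trimmed reads with Trimmomatic, aligned them with STAR to hg19 and counted them with featureCounts over an Ensembl annotation. The annotation release, strand setting and handling of reads with several alignments are not given in the sources used here. Genes were joined by identifier to GENCODE v44 (GRCh38), a later build than that of the counts, which supplied symbols, canonical transcripts, coding lengths, sequences and coordinates. Genes kept by filterByExpr were fitted together by the quasi-likelihood test of edgeR 4.0.16 (R 4.3.3) with TMM factors of 0.758 to 1.28 and robust dispersions, with the group as the only term. A gene was called when its adjusted p was under 0.05 and its log2 fold change exceeded 1 (enriched) or fell under -1 (depleted), and SE followed from F and the fold change. The scripts were tested on simulated data.

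The labels name each Input after the RIP replicate it belongs to, and deviations from the group means correlated (Pearson r = 0.645 over genes), so that a fit with the replicate number as a block was an alternative. Other alternatives were RLE, upper-quartile and library-size scaling, no filter, DESeq2 1.42.0, a filter of 1 CPM in 2 libraries, limma voom (limma 3.58.1), a pseudocount of 2 CPM, exonic length, and leaving out each library. Fits of GC content and GAA codons and of the other lists under these alternatives were added after seeing the data. All called kinesins were named, with every library for the 12 with the largest changes and at least 5 CPM on average. The kinesins and all gene lists were chosen with earlier results of these data known, so they are not independent of them. Counts limit precision in weakly expressed members, and no depth other than the total counts was given. The depleted cargo adaptor is not reported here by name.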

Additional observations from a re-analysis of the deposited data

How the results depend on the processing

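Calls of the 42 kinesin mRNAs did not change in limma voom or with at least 1 CPM in 2 libraries. The replicate block (23 kinesins enriched, with 13.4% of all tested genes enriched) added KLC1 and KIF11 and changed no other kinesin call. DESeq2 added the same pair and the fit without a count filter added KLC1. With library size alone, 8 kinesins were enriched and the medians were 0.53 for all, 0.99 for mitotic and 0.56 for transport members, with KIF1C and KIF26B at -0.13, KIF21B at -0.15, KLC3 at -0.31, KIF12 at -0.34, KLC2 at -0.43, KIF3C at -0.50 and KIF9 at -0.51. The other lists then had 6 spindle genes enriched, 2 adaptors enriched and 2 depleted, 2 dynein and dynactin genes enriched and 8 depleted, and 5 tubulins depleted, where 2.59% of all tested genes were enriched and 22.2% depleted. With upper-quartile scaling the kinesin median was 0.96, KLC2, KIF3C and KIF9 were at -0.0053, -0.069 and -0.081, and KIF27, KLC4 and KIF24 were not called. In that fit 3 dynein and dynactin genes and 1 tubulin were depleted, with 10.5% of all tested genes depleted. RLE size factors and the 1 CPM filter each gave 2 depleted dynein and dynactin genes, where 8.62% and 9.58% of all tested genes were depleted. These scalings move all genes together, as their construction implies. The median of replicate ratios was 0.99 with a pseudocount of 2 CPM. The rho of coding length was 0.135 without a filter and 0.139 in DESeq2 over 46 kinesins, which include 4 below the count filter, and 0.240 and 0.233 over the same 42. It was 0.0015 with exonic length (0.298 across tested protein-coding genes), where the cause was not tested.

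Leaving out 1 library at a time gave medians of 1.01 to 1.24 for all kinesins, 1.13 to 2.20 for mitotic and 0.99 to 1.23 for transport members. The rho was 0.204 to 0.357 for coding length, -0.814 to -0.275 for GC content and 0.287 to 0.826 for GAA codons. Depleted genes numbered 0 to 4 in dynein and dynactin and 0 to 1 in tubulins. KLC3 ranged from -0.0060 to 0.60 and turned negative without IP replicate 2, KIF12 from -0.38 to 1.00 (negative without IP replicate 2 and, at -0.29, Input replicate 1), KIF9 from -0.055 to 0.15 (negative without Input replicate 2) and KIF18B from -0.39 to 0.11 (positive without IP replicate 2 and, at 0.048, Input replicate 1). With 1 library left in a group, that library is assumed to vary like the others, and the counts of depleted genes rest on that assumption. The share of all tested genes depleted moved too, at 9.50% without Input replicate 1 and 11.8% without Input replicate 2. Each group had 2 libraries, and the Inputs held fewer counts than the IP libraries.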
